A study of Homo sapiens with 24 samples.

Results

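The protocadherin family was examined on bead arrays of C4-2B prostate cancer cells, in which EP300 or CREBBP had been knocked down and androgen added or not. Its members were the genes whose platform symbol starts with PCDH, with pseudogenes left out: 65 of 20046 named genes, measured by 125 of the 47231 probes on the array. The alpha cluster had 33 probes for 15 genes, the beta cluster 23 for 16, the gamma cluster 40 for 22, and the unclustered genes 29 for 12. Members were chosen by symbol, and those tested were selected on measured detection p-values, described below. The family was taken up with earlier results of the same arrays known, so the p-values below, from a fit over the whole array, are not independent support for its choice.

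The cells had received siRNA targeting EP300 (the sip300 groups), siRNA targeting CREBBP (the siCBP groups) or a non-specific siRNA (the siNS groups), in each case with 16 h of 10 nM dihydrotestosterone (DHT, an androgen) or 0 h of it. Before that, all groups, controls included, were kept for 3 days without phenol red and in 5% serum stripped with charcoal, which is poor in steroid hormones. Each of the 6 groups had 4 arrays, spread over 2 slides with 2 arrays of a group on each, and the same replicate numbers 1 to 4. A single cell line was used, the labels do not say whether replicates were separate cultures, and p-values therefore measure the spread between these samples. EP300 (p300) and CREBBP (CBP) are paralogous histone acetyltransferases that act as transcriptional coactivators, and C4-2B is a castration-resistant derivative of the LNCaP prostate cancer line.

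Protocadherins are calcium-dependent adhesion proteins of the cadherin superfamily, studied mostly in neurons. The alpha, beta and gamma genes lie in tandem on chromosome 5 (band 5q31), and each variable exon has its own promoter. Single neurons use only some of these promoters, and the choice gives the cell a surface identity through like-with-like binding. CTCF and cohesin bind the promoters and distal enhancers, and DNA methylation and repressive histone methylation silence the promoters that are not used. In epithelial tumours, promoters of the clusters are known to be methylated over long stretches. The unclustered genes, such as PCDH7, PCDH10 and PCDH20, are scattered over the genome and are switched individually.

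Most protocadherin probes gave no signal above background. A probe was counted as detected on an array where its detection p, which ranks it against negative control beads, was under 0.05, and it entered the tests where it was detected on at least 4 of the 24 arrays. This held for 23 of the 125 protocadherin probes (18.4%), from 19 genes, against 48.8% of all probes. On no array at all were 71 protocadherin probes detected (56.8%), against 30.8% of all probes. Detection on all 24 arrays was reached by 3 protocadherin probes (2.4%), those of PCDH7, PCDHB9 and PCDHGB6, against 28.1% of all probes. The subclusters lay close together in this respect: 7 of 33 alpha probes (21.2%), 4 of 23 beta probes (17.4%), 6 of 40 gamma probes (15%) and 6 of 29 unclustered probes (20.7%) entered the tests. A further 31 probes were detected on 1 to 3 arrays, and 8 of these, on 3 arrays, stood just outside the threshold, as 4 probes on 4 arrays stood just inside it. At a detection p under 0.01 only 7 of the 125 probes were left. On single arrays, between 8 and 18 of the 125 were detected, among 17663 to 19830 of all probes.

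**Figure D1:**
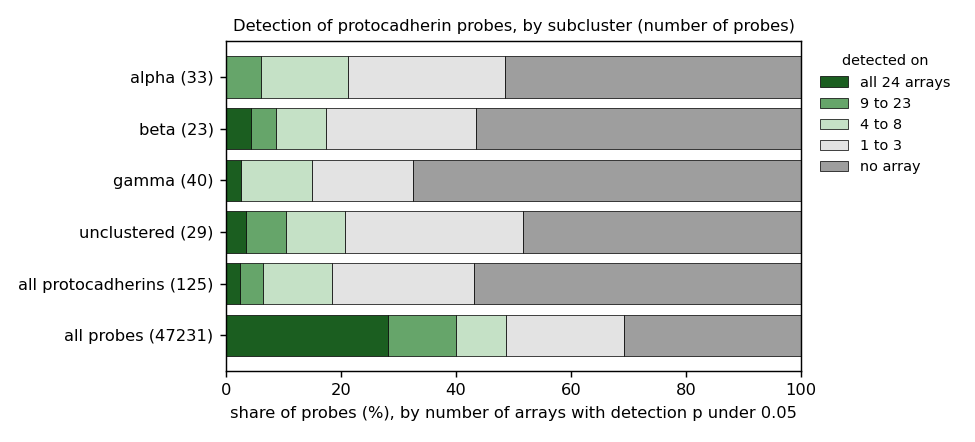
Share of probes (%) by the number of arrays on which each was detected (detection p under 0.05), for the 4 protocadherin subclusters, the 125 protocadherin probes together and all 47231 probes on the array. The dark bars, probes detected on all 24 arrays, cover 2.4% of protocadherin probes and 28.1% of all probes.

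PCDHB2, the second gene of the beta cluster, was higher in sip300 cells at both times. It was the one family member that passed the test in the main fit, which does not use the replicate numbers. In a further fit with the replicate number as a block, described below, PCDH7, PCDHB9 and PCDH20 passed in some comparisons as well. The log2 signal of its detected probe (ILMN_2227757) was 8.60, 8.57, 8.48 and 7.99 on the 4 arrays of sip300 cells with DHT, against 5.85, 5.96, 6.18 and 5.47 in siNS cells with DHT. Without DHT it was 8.16, 8.35, 8.15 and 7.17 in sip300 cells, against 5.82, 6.34, 5.89 and 4.98 in siNS cells. At both times every sip300 array lay above every siNS array, and with DHT this was the only tested protocadherin probe whose groups did not overlap, against 15.2% of all tested probes. The difference was 2.54 ± 0.325 with DHT (log2, SE of the fit, n = 4 arrays a group; 5.83-fold; limma adjusted p = 7.63e-05) and 2.20 ± 0.325 without it (4.60-fold; limma adjusted p = 0.000375). Before normalisation the bead intensity averaged 494 ± 73.3 in sip300 cells and 188 ± 11.5 in siNS cells with DHT (SD, n = 4 each). Among all 23038 tested probes ranked by this difference, PCDHB2 stood at place 14 from the top with DHT and at place 17 without DHT. All 4 sip300 arrays detected the probe at each time, against 2 of 4 siNS arrays with DHT and 3 of 4 without, so the siNS level lay at the edge of detection. With the undetected level on each siNS array set to that of the dimmest detected probe there, where this was higher, sip300 cells were at least 5.47-fold higher with DHT and at least 4-fold higher without. Here and below, such a bound compares group means and allows for the detection limit only, not for the spread between arrays. The probe would have entered the tests without the sip300 arrays, with 8 detected among the siCBP and siNS arrays. In bulk RNA, more expressing cells and more RNA per cell cannot be told apart.

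In siCBP cells the PCDHB2 signal was near that of the controls. It was 5.10, 5.90, 5.35 and 4.84 with DHT and 5.40, 6.21, 6.34 and 4.86 without DHT, and was detected on 1 of 4 of these arrays with DHT and on 2 of 4 without. Every siCBP array was below every sip300 array of the same time, and the siCBP and siNS arrays overlapped. Among all tested probes, 12.3% with DHT and 9.14% without did not overlap between sip300 and siCBP cells. Set against siCBP cells, sip300 cells were at least 5.87-fold higher with DHT and at least 3.78-fold higher without it, by the same bound. The fitted differences, 3.11 ± 0.325 with DHT (limma adjusted p = 7.44e-06) and 2.26 ± 0.325 without (limma adjusted p = 0.000261), rest on siCBP levels that were partly below detection. The siCBP differences from siNS cells were -0.57 with DHT and -0.06 without, and neither passed the test. DHT itself moved PCDHB2 by 0.45 in sip300 cells, -0.41 in siCBP cells and 0.11 in siNS cells, with no call in any arm. The other PCDHB2 probe, ILMN_1683942, was detected on 1 of 24 arrays. It averaged 5.27 in sip300 cells and 5.08 in siNS cells with DHT, and 5.55 in sip300 cells and 4.97 in siNS cells without DHT. These means lay below detection, so the probe gave no measurement of the change. Within slide 2 alone, which leaves 2 arrays a group, the PCDHB2 differences from siNS cells were 2.51 with DHT and 2.00 without, with limma adjusted p-values of 0.066 and 0.073, and on slide 1 they were 2.58 and 2.40 and passed. On a single slide the compared groups hold partly different replicate numbers.

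**Figure D2:**
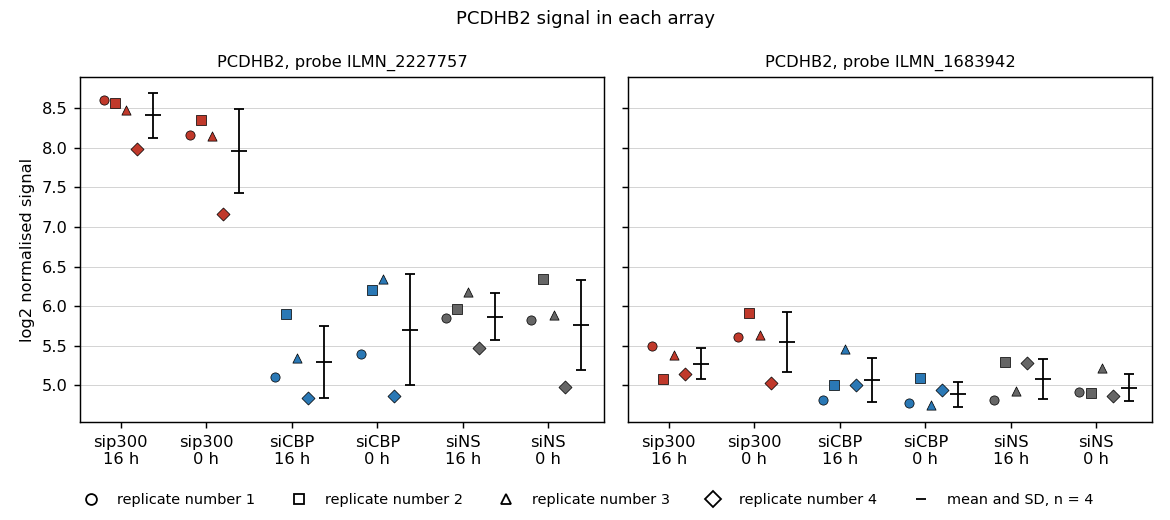
Log2 normalised signal of the 2 PCDHB2 probes on each array, by group; symbols mark the replicate number, and the bar beside each group is the mean and SD of 4 arrays. On the left the sip300 arrays sit between 7.17 and 8.60 and all others between 4.84 and 6.34, while the probe on the right stays near the detection limit in every group.

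Other beta genes were close to background or moved less. PCDHB9, detected by its probe ILMN_2047885 on all 24 arrays, had 7.33, 8.25, 8.24 and 8.38 in sip300 cells with DHT, against 6.79, 7.65, 8.41 and 7.91 in siNS cells with DHT. In the absence of DHT it had 8.12, 7.84, 8.35 and 8.07 in sip300 cells, against 6.70, 7.75, 7.59 and 7.73 in siNS cells. These groups overlapped with DHT and did not overlap without it, as was true of 2 of the 23 tested protocadherin probes and 10.9% of all tested probes without DHT. The difference was 0.36 ± 0.327 with DHT and 0.65 ± 0.327 without, with limma adjusted p-values of 0.573 and 0.264. Leaving out 1 array or replicate number gave 0.06 (without replicate 1 of the siNS cells) to 0.60 with DHT and 0.40 to 0.84 without. The 0.06 keeps replicate 1 of the sip300 cells, so the compared groups hold different replicate numbers. A block on replicate number brought the limma adjusted p-values to 0.247 and 0.0343. A further PCDHB9 probe, ILMN_1769859, detected on 4 arrays, did not follow it: its difference without DHT was -0.24. PCDHB3, next to PCDHB2 on the chromosome, was detected on 6 arrays and differed by 0.13 ± 0.225 with DHT and 0.29 ± 0.225 without, neither of which passed. PCDHB5 stood just outside the detection threshold, with 1 of 4 arrays detected in sip300 cells with DHT, 2 of 4 without DHT, and none in the siCBP and siNS groups. In a fit over all 47231 probes it was called higher in sip300 than in siNS cells (limma adjusted p = 0.00648 with DHT and 0.0299 without), where 3.68% and 2.59% of all probes were called. Its signal averaged 5.62 in sip300 cells and 4.68 in siNS cells with DHT, both under the 5.83 that the dimmest detected probes averaged on those siNS arrays, so no fold is given. In that fit PCDHB13, detected on no array, was called higher in sip300 than in siCBP cells with DHT (0.49, limma adjusted p = 0.0431), where 2.29% of all probes were called. It averaged 5.17 in sip300 cells and 4.68 in siCBP cells, both below detection, and it was not called against siNS cells. The other 12 beta genes had no probe detected on more than 1 array.

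Promoter sequences are shown for the beta genes because the gene that changed and several beta genes that gave no signal share a word there. RefSeq promoters (GRCh38.p14, from 250 bases before to 50 after the gene's start) were matched for 57 of the 65 family genes, 14 of them beta. The word GGTGGCGCTG, searched on both strands and which is the 10-base word found in most beta promoters and so was picked from them, occurred in 12 of the 14 beta promoters, in none of the 13 alpha, 20 gamma and 10 unclustered ones, and in 0.276% of all 35116 promoters. It holds the shorter CGCTG, which 48.0% of all promoters contain. Capitals mark the word in the 26 bases around it in each gene, all on the plus strand of chromosome 5 and read 5′ to 3′.
PCDHB2: cgcggGGTGGCGCTGcagccttagaa
PCDHB3: cgcatGGTGGCGCTGttgactaagaa
PCDHB4: cgcagGGTGGCGCTGcaggctaagtt
PCDHB5: cgcctGGTGGCGCTGcaggctaagag
PCDHB7: cgcaaGGTGGCGCTGctggctaaaaa
PCDHB8: cccgtGGTGGCGCTGcaggataagaa
PCDHB9: cacaaGGTGGCGCTGcagactgaaga
PCDHB10: cacacGGTGGCGCTGcaggctaaaga
PCDHB12: cgcgtGGTGGCGCTGcaggataatat
PCDHB13: cgcgtGGTGGCGCTGcaggataagaa
PCDHB15: cgcatGGTGGCGCTGcaggctaaggc
PCDHB16: cgcgtGGTGGCGCTGcaggttaagat
In PCDHB2 the word begins 60 bases before the gene's start, in PCDHB9 76 and in PCDHB3 69 bases before it. PCDHB1 and PCDHB14 lacked it. PCDHB2, which changed, and PCDHB4, PCDHB7, PCDHB8, PCDHB12, PCDHB13 and PCDHB15, whose probes were detected on no array, thus carry the same letters. Whether the undetected genes changed cannot be read from these arrays. The whole PCDHB2 promoter window lies at chr5:141094365-141094664 and reads as follows, with the word in capitals.
PCDHB2: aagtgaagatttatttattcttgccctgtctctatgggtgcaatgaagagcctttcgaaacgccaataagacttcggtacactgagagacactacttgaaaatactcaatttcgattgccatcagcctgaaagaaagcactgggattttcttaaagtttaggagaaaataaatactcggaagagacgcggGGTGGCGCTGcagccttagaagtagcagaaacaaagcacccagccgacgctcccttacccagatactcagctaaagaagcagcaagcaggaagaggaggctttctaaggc
In the same windows the 9-base words found in the largest numbers of alpha and of gamma promoters were GATGTCGCT, in 9 of 13 alpha promoters and 0.105% of all promoters, and GCGCCGCTG, in 10 of 20 gamma promoters and 1.28% of all. Promoters of PCDH10, PCDH20, PCDHA3, PCDHA13, PCDHB6, PCDHB11, PCDHGA12 and PCDHGC5 were not matched.

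Alpha cluster genes showed no call in any comparison. The one alpha probe detected on all 4 arrays of a group was that of PCDHAC2 (ILMN_2373592), a C-type isoform at the end of the cluster, detected on 21 of 24 arrays. Its log2 signal was 6.01, 6.11, 6.75 and 6.20 in sip300 cells with DHT, against 6.37, 6.22, 6.38 and 6.26 in siNS cells with DHT. Without DHT it was 6.63, 6.47, 6.40 and 5.75 in sip300 cells, against 6.78, 6.12, 6.36 and 6.23 in siNS cells. The groups overlapped at both times, and the differences of -0.04 ± 0.236 with DHT and -0.06 ± 0.236 without did not pass (limma adjusted p = 0.947 and 0.926). PCDHAC2 had 2 more tested probes, on 11 and 6 arrays, with differences from siNS cells between -0.20 and 0.19. Between sip300 and siNS cells, PCDHA2 gave the largest difference of a tested alpha probe, -0.60 ± 0.277 with DHT (limma adjusted p = 0.193), from a probe that no sip300 array with DHT and 2 of 4 siNS arrays with DHT detected. PCDHA1, PCDHA5 and PCDHA12 were detected on 7, 4 and 5 arrays and differed from siNS cells by -0.45 to 0.33 over both times. No probe of PCDHA8, PCDHA10 or PCDHA13 was detected on any array.

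In the gamma cluster PCDHGB6, a B-type gene, was detected on all 24 arrays by its probe ILMN_1701644. Its signal was 7.18, 6.90, 7.20 and 6.62 in sip300 cells, 7.38, 7.71, 7.60 and 7.12 in siCBP cells and 6.50, 7.31, 7.77 and 6.92 in siNS cells with DHT. Without DHT the values were 7.54, 6.78, 7.23 and 7.03 in sip300 cells, 6.85, 7.47, 7.72 and 7.21 in siCBP cells and 6.85, 7.14, 7.55 and 6.48 in siNS cells. All 6 groups overlapped and no comparison passed, though with DHT 3 of 4 siCBP arrays stood above every sip300 array. By this probe PCDHGB6 differed between sip300 and siNS cells by -0.15 ± 0.259 with DHT and 0.14 ± 0.259 without. A further PCDHGB6 probe, ILMN_2274355, stood just outside the tests and did not follow it. That probe was detected on 3 of 4 siNS arrays without DHT and on no other array. Without DHT it differed from siNS cells by -0.66 in sip300 and -0.69 in siCBP cells. The remaining gamma probes that entered the tests, for PCDHGA5, PCDHGA8, PCDHGA9, PCDHGB4 and PCDHGC3, were detected on 4 to 8 arrays and differed between sip300 and siNS cells by -0.33 to 0.24. Of the 40 gamma probes 27 were detected on no array (67.5%), the largest such share among the 4 subclusters.

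Among unclustered genes, PCDH7 and PCDH20 carried clear signal whose main axis was the replicate number. PCDH7, a protocadherin with an isoform that binds protein phosphatase 1, was detected by ILMN_1710544 on all 24 arrays. Its signal was 8.65, 9.71, 10.20 and 7.45 for replicates 1 to 4 of sip300 cells with DHT, against 6.29, 8.47, 9.72 and 6.16 in siNS cells with DHT. Without DHT it was 8.89, 10.13, 11.06 and 7.45 in sip300 cells, against 6.05, 8.96, 10.41 and 6.61 in siNS cells. Replicate number 3 was highest and number 2 next in each of these groups, so the groups overlapped, but every sip300 array lay above the siNS array of the same number. Replicate number took up 77.5% of the variation of this probe over 24 arrays, against a median of 18.4% over all tested probes, and 0.603% of tested probes had a larger share.

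The PCDH7 difference between sip300 and siNS cells was 1.34 ± 1.08 with DHT and 1.37 ± 1.08 without, and did not pass (limma adjusted p = 0.514 and 0.522). Leaving out 1 array or replicate number moved it widely, between 0.84 (without replicate 4 of the siNS cells) and 2.03 (without their replicate 3) with DHT. Without DHT it lay between 0.72 (without replicate 1 of the siNS cells) and 2.18 (without their replicate 3). These extremes keep the sip300 array of the number left out, so the compared groups hold different replicate numbers. With the replicate number as a block it passed at both times (limma adjusted p = 0.00328 and 0.00356). By replicate number the sip300 array was higher by 2.36, 1.24, 0.47 and 1.30 with DHT and by 2.84, 1.17, 0.65 and 0.84 without. Against siCBP cells the differences were 1.44 with DHT and 1.52 without, again called only with the block (limma adjusted p = 0.00263 and 0.00224). A fainter PCDH7 probe, ILMN_1670383, was detected on 2 of 4 sip300 arrays at each time and on no siNS array, so it entered the tests only through sip300 cells, where it is high. It averaged 5.75 in sip300 cells and 4.97 in siNS cells with DHT, and 6.07 in sip300 cells and 5.02 in siNS cells without DHT, which is at least 1.22-fold higher without DHT. That probe did not pass in the fit with the block either (limma adjusted p = 0.154 and 0.0599).

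PCDH20, detected on 18 of 24 arrays, was the family member that followed DHT when replicate numbers were matched. Its signal with DHT was 6.45, 9.34, 10.09 and 6.34 in sip300 cells, against 5.32, 7.17, 8.06 and 5.19 in sip300 cells without DHT. In siCBP cells it was 6.50, 9.58, 10.01 and 6.20 with DHT, against 4.96, 7.18, 8.42 and 4.89 without. In siNS cells it was 6.03, 9.49, 9.97 and 6.15 with DHT, against 5.04, 6.91, 7.47 and 4.95 without. Each array with DHT stood above the array of the same number without DHT in all 3 arms, by 0.99 to 2.58, while numbers 2 and 3 were high and numbers 1 and 4 low throughout. All 4 arrays of a group detected the probe with DHT and 2 of 4 without. The DHT difference was 1.62 ± 1.12 in sip300 cells, 1.71 ± 1.12 in siCBP cells and 1.82 ± 1.12 in siNS cells, with limma adjusted p-values of 0.999, 0.798 and 0.682. Leaving out 1 array or replicate number gave 0.94 to 2.19, 1.07 to 2.40 and 1.13 to 2.44 in these arms. These extremes leave out 1 array and keep its partner of the same number. With the replicate number as a block all 3 passed (limma adjusted p = 0.000533, 0.000162 and 6.66e-05). Replicate number took up 73.1% of the variation of PCDH20. No difference between siRNAs was called for it, with or without the block.

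PCDH10, PCDH15 and PCDH18 were the other unclustered genes with a tested probe, each a fainter one. PCDH15, part of the tip link of hair cells, was detected on 11 arrays and was 0.02 ± 0.21 apart between sip300 and siNS cells with DHT. Its sip300 arrays with DHT, at 5.60 to 6.01, did not overlap those without DHT, at 5.46 to 5.59, which held for 3.01% of all tested probes, but the difference was not called. PCDH10 and PCDH18, on 8 arrays each, differed between sip300 and siNS cells by -0.07 to 0.21. PCDH8, PCDH12 and PCDH19 were detected on no array.

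**Figure D3:**
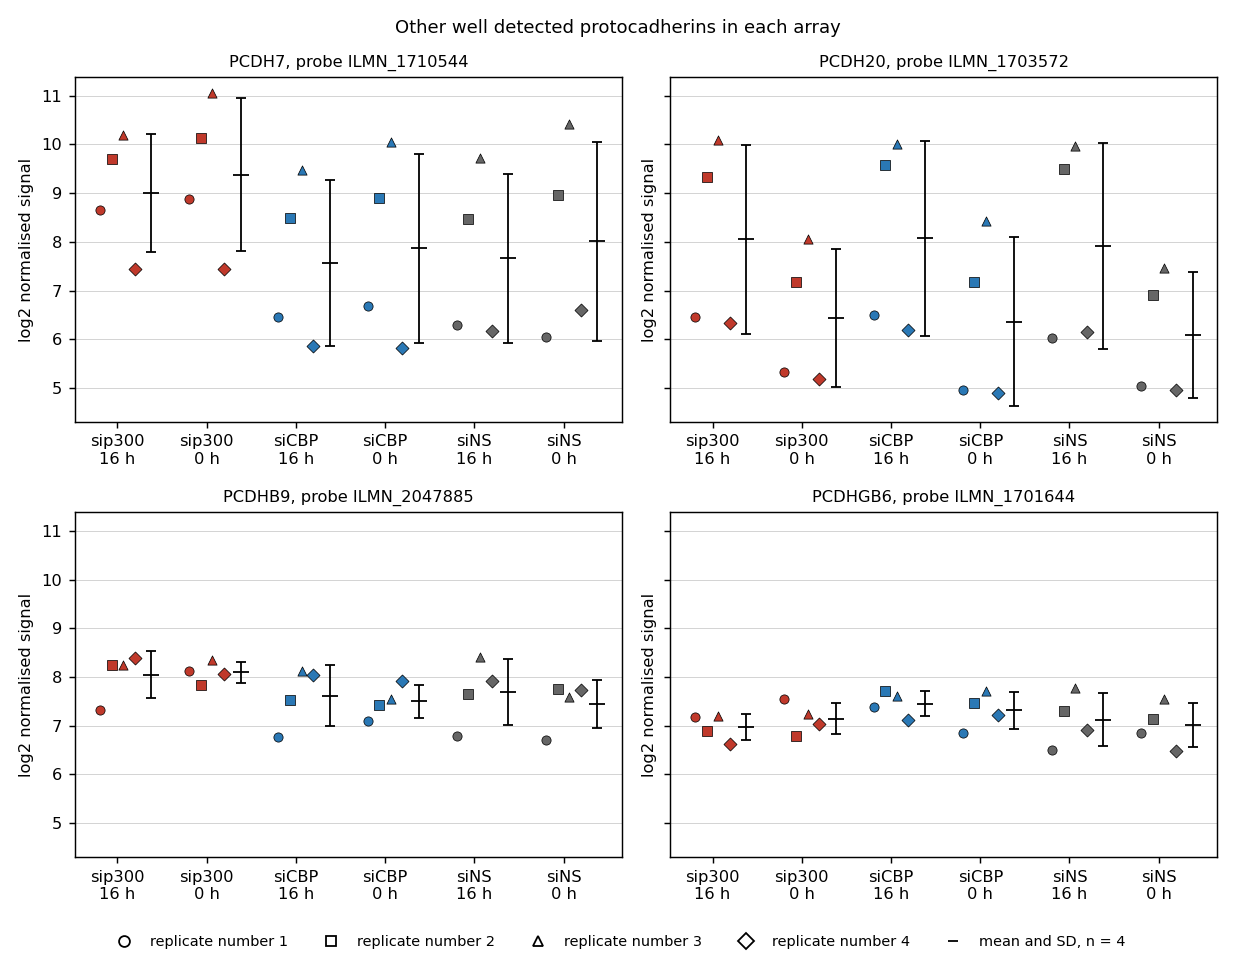
Log2 normalised signal of PCDH7, PCDH20, PCDHB9 and PCDHGB6 on each array, by group; symbols mark the replicate number, and the bar beside each group is the mean and SD of 4 arrays. PCDH7 and PCDH20 spread mainly by replicate number, with numbers 2 and 3 above 1 and 4 in every group, and within a number PCDH7 is higher in sip300 cells and PCDH20 higher with DHT.

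Counted over the family, sip300 cells differed from siNS cells at 1 of 23 tested protocadherin probes with DHT, PCDHB2, where 9.14% of all tested probes were called (4.74% higher). Without DHT the count was again 1 of 23, where 6.17% of all tested probes were called (3.13% higher). A single member of 23 is near these shares of all probes and is not a result about the family. With the replicate block, 2 of 23 passed with DHT (PCDHB2 and PCDH7) where 17.3% of all tested probes did (9.11% higher). Without DHT 3 of 23 passed (PCDHB2, PCDHB9 and PCDH7) where 14.3% of all did (7.34% higher), and each of these members was higher in sip300 cells. Over all 125 probes, detected or not, the median difference between sip300 and siNS cells was 0.015 with DHT and 0.039 without, against -0.002 and 0 over all 47231 probes. By subcluster with DHT it was -0.004 for alpha, 0.013 for beta, -0.003 for gamma and 0.072 for unclustered probes. Without DHT it was 0.011 for alpha, 0.056 for beta, 0.041 for gamma and 0.071 for unclustered probes. A difference over 0.5 in either direction was seen at 6 of 125 probes with DHT and 9 of 125 without, in both cases including PCDHB2 and PCDH7. For all probes on the array that share was 9.92% with DHT and 9.05% without.

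Against siCBP cells, sip300 cells differed at 1 of 23 protocadherin probes at each time, PCDHB2, where 5.7% of all tested probes were called with DHT and 3.77% without. With the replicate block PCDH7 was added at each time, and 13.1% and 9.84% of all tested probes passed. Between siCBP and siNS cells no family member was called by limma: 0 of 23 with DHT, where 0.0217% of all tested probes were called and no family member had an unadjusted p under 0.05. The count without DHT was also 0 of 23, where 0.0391% were called and 1 member had an unadjusted p under 0.05. With the replicate block both counts were still 0, where 0.0868% with DHT and 0.0651% without were called. These contrasts share the siNS arrays with the sip300 contrasts.

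For DHT, limma called 0 of 23 protocadherin probes in sip300 cells (0.525% of all tested probes called), 0 of 23 in siCBP cells (1.68%) and 0 of 23 in siNS cells (1.96%). At an unadjusted p under 0.05 the counts were 1, 1 and 2, and with the replicate block PCDH20 was called in each arm, where 1.15%, 3.41% and 4.13% of all tested probes passed. The difference between the DHT response of sip300 and that of siNS cells was called for 0 of 23 members, with 0 at an unadjusted p under 0.05, and 0.00434% of all tested probes. For siCBP against siNS cells, and for sip300 against siCBP cells, the same test called 0 of 23 members and 0% of all tested probes, with 1 member each at an unadjusted p under 0.05.

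**Figure D4:**
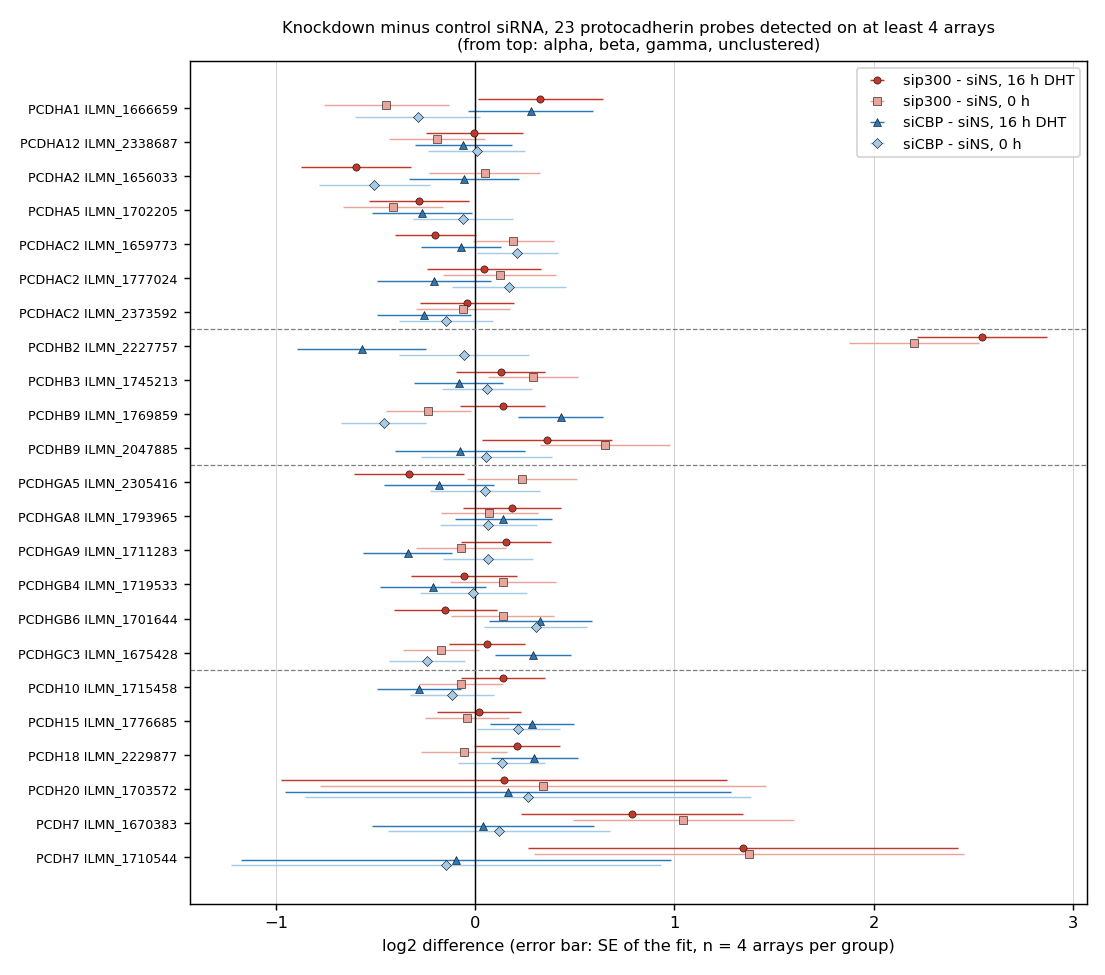
Log2 difference from siNS cells for the 23 tested protocadherin probes (points, with the SE of the fit), for sip300 and siCBP cells with 16 h of DHT and without; dashed lines part the alpha, beta, gamma and unclustered genes. PCDHB2 stands at 2.54 and 2.20 in sip300 cells, the PCDH7 probes lie next with wider errors, and the siCBP points stay within 0.57 of 0.

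No gene next to PCDHB2 with a tested probe passed the test. The gene order taken from RefSeq held 71 protein-coding genes from CD14 to PCDH12, 55 of them protocadherins, of which 14 had a tested probe. Of the 16 others, which include TAF7 between the beta and gamma clusters, 15 had a tested probe. TMCO6, a listed neighbour of the clusters, is missing from that order. The neighbour list, which includes it, has 17 genes, 16 of them tested, and 1 was called at each time. ARAP3, a GTPase-activating protein gene beyond the gamma cluster, was the only one of the 15 called between sip300 and siNS cells, and it was lower, by -1.10 ± 0.236 with DHT (limma adjusted p = 0.0051) and -1.09 ± 0.236 without (limma adjusted p = 0.00713). Of all tested probes, 9.14% were called with DHT and 6.17% without. A count of 1 in 15 is near these shares and is not a result about the region. TAF7, a subunit of the general factor TFIID, differed by 0.31 ± 0.185 with DHT and 0.19 ± 0.185 without. HDAC3, a deacetylase of corepressor complexes, differed by 0.44 ± 0.146 with DHT and 0.35 ± 0.146 without, and passed with DHT only with the replicate block (limma adjusted p = 0.058, with the block 0.0128).

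**Figure D5:**
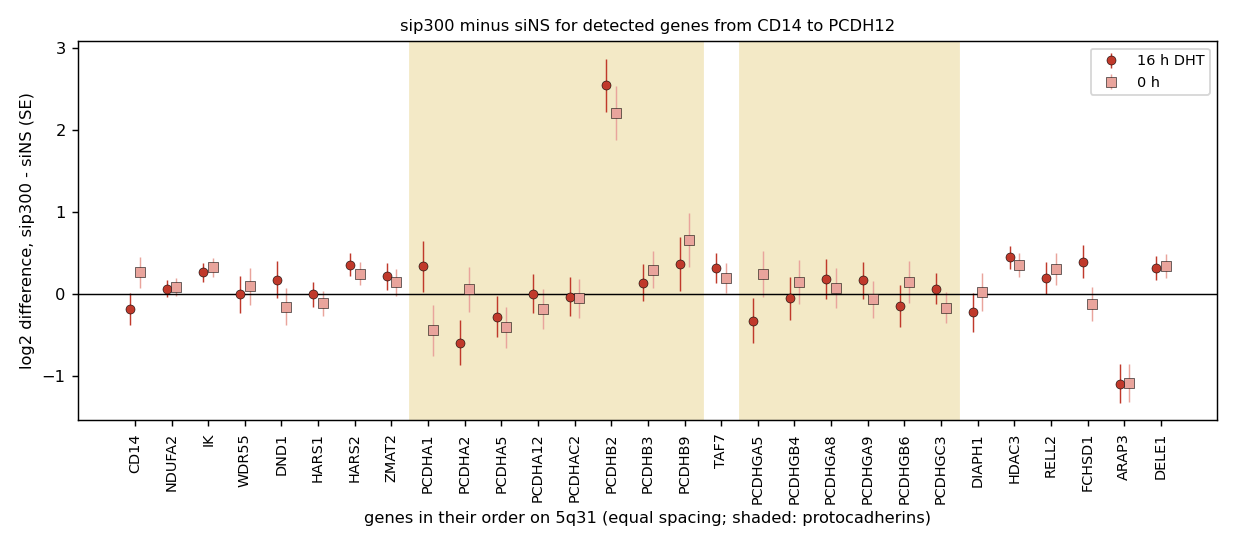
Log2 difference between sip300 and siNS cells, with its SE, for genes with a tested probe from CD14 to PCDH12, in their order on chromosome 5 at equal spacing; protocadherins are shaded. PCDHB2 stands above and ARAP3 below 0 at both times, and the genes on either side of PCDHB2 do not. TMCO6 is not shown.

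Genes that act on or with protocadherins were also looked up. Of 22 listed chromatin regulators of the clusters (CTCF, cohesin and its loader, and silencing factors), 20 had a tested probe. With DHT 4 of the 20 were higher in sip300 than in siNS cells, where 4.74% of all tested probes were, and none lower: the cohesin subunit STAG2 by 0.52 ± 0.148, the cohesin loader subunit MAU2 by 0.67 ± 0.172, the histone H3 lysine methyltransferase SETDB1 by 0.55 ± 0.169, and the neuronal gene repressor REST. REST averaged 6.23 in sip300 cells and 5.51 in siNS cells, was detected on no siNS array with DHT, and was at least 1.32-fold higher (limma adjusted p = 0.0196). The adjusted p-values of STAG2, MAU2 and SETDB1 were 0.0304, 0.0162 and 0.0438. Without DHT only SETDB1 of the 20 passed, at 0.59 ± 0.169 (limma adjusted p = 0.0385), where 3.13% of all tested probes were higher. The median difference of the 20 was 0.09 with DHT and 0.07 without, against 0.003 over all tested probes at each time. CTCF was tested and was not called.

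Of 17 listed signalling and cleavage partners, 14 had a tested probe and 2 were higher in sip300 than in siNS cells at each time, with none lower, where 4.74% of all tested probes were higher with DHT and 3.13% without. Their median difference was 0.22 at each time. PTK2, the focal adhesion kinase that alpha and gamma protocadherins inhibit, was higher by 0.52 ± 0.126 with DHT and 0.47 ± 0.126 without (limma adjusted p = 0.0105 and 0.0263). CYFIP2 was higher by 1.05 ± 0.272 with DHT (limma adjusted p = 0.0174) and CYFIP1 by 0.73 ± 0.159 without DHT (limma adjusted p = 0.00713), both subunits of the WAVE complex that binds the tails of several protocadherins. With the block, 3 partners were higher with DHT and 4 without, where 9.11% and 7.34% of all tested probes were. Counts this small say nothing particular to these lists.

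Among 47 other cadherin superfamily genes 20 had a tested probe, and their median difference between sip300 and siNS cells was -0.05 with DHT and -0.01 without. CDH18 and CDH6, type II cadherins, are given as values only, since their probes entered the tests only through sip300 cells, where they are high. No siNS or siCBP array detected CDH18, which averaged 6.40 in sip300 cells and 5.21 in siNS cells with DHT (at least 1.48-fold higher), and 7.08 in sip300 cells and 5.23 in siNS cells without (at least 2.46-fold higher). CDH6 averaged 6.77 in sip300 cells and 5.19 in siNS cells with DHT (at least 1.92-fold higher), and 7.17 in sip300 cells and 5.06 in siNS cells without (at least 2.62-fold higher), from 2 of 4 sip300 arrays detected at each time. Apart from these, CDH15 was lower in sip300 than in siNS cells with DHT (-0.95 ± 0.283, limma adjusted p = 0.0356) and FAT1, a giant cadherin, was higher without DHT (1.19 ± 0.305, limma adjusted p = 0.0202). These are 1 call at each time, where 9.14% of all tested probes were called with DHT and 6.17% without. With the replicate block none was higher and 2 were lower with DHT, and 2 were higher and 1 lower without, where 17.3% and 14.3% of all tested probes were called.

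In siCBP against siNS cells, none of the tested genes of these 3 lists or of the neighbour list was called, with or without the block. For DHT none was called in any arm without the block. With it, 2 other cadherins were higher and 2 lower with DHT in siNS cells, where 4.13% of all tested probes were called, and 1 was lower in siCBP cells, where 3.41% were. These were CDH15 (0.77, limma adjusted p with the block 0.0255) and the desmosomal cadherin DSC1 (0.86, 0.0223), higher in siNS cells, CDH26 (-1.19, 0.0184), lower there, and CDH3, P-cadherin, lower in siNS (-1.61, 0.00453) and siCBP cells (-1.58, 0.00637).

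The knockdowns were visible on the arrays. EP300 signal was 43.9% of the siNS level in sip300 cells with DHT and 54.3% without (limma adjusted p = 0.00278 and 0.0245), and CREBBP signal was 29.9% and 31.1% in siCBP cells (limma adjusted p = 0.000116 and 0.000213). All 9 luminal prostate markers with a probe were detected, 7 of them on all 24 arrays, and none of the 3 basal markers was. Of 14 neuronal and neuroendocrine markers with a probe, 6 were detected on no array (CHGB, SYP, NCAM1, SNAP25, ELAVL4 and SYT1). The summed linear signal of the 14 was 3708 to 8176 in sip300 cells and 1370 to 3200 in siNS cells with DHT, and 2979 to 6099 in sip300 cells and 1571 to 3027 in siNS cells without DHT. Over the 6 tested markers, the median log2 difference between sip300 and siNS cells was 0.23 with DHT and -0.15 without. The higher sums thus do not stand for the list as a whole. One of the 6 tested, the tubulin TUBB3, passed with DHT (1.99 ± 0.548, limma adjusted p = 0.0241). TUBB3 also passed, with the replicate block, without DHT (1.43, limma adjusted p = 3.95e-05), as the enolase ENO2 did with DHT (0.96, limma adjusted p = 0.0468). For 7 stromal markers, none detected on all 24 arrays, the sum was 451 to 556 in sip300 cells and 353 to 384 in siNS cells with DHT, and 460 to 621 in sip300 cells and 315 to 450 in siNS cells without. Of the 3 stromal markers tested, the smooth muscle actin ACTA2 was higher in sip300 than in siNS cells at both times (limma adjusted p = 0.00916 with DHT and 0.00713 without). It was detected on all 4 sip300 arrays and 1 of 4 siNS arrays at each time, and was at least 2.15-fold higher with DHT and at least 2.52-fold higher without. The luminal markers KLK2, KLK3 and TMPRSS2 were lower in sip300 than in siNS cells with DHT (3 of 9 called), and KLK3 and TMPRSS2 also without DHT (2 of 9). Of all tested probes, 9.14% were called between sip300 and siNS cells with DHT and 6.17% without. These shares stand beside the neuronal and stromal counts too, and counts this small say nothing particular to a list. KLK2 was, with the replicate block, lower without DHT too (-1.23, limma adjusted p = 0.0122), and FOLH1 was higher with DHT (0.51, limma adjusted p = 0.0291). With DHT the luminal sum was 8645 to 14856 in sip300 cells and 16403 to 20336 in siNS cells. Without DHT the luminal sums overlapped, at 5364 to 10383 in sip300 cells and 6528 to 8837 in siNS cells. The part of these lists in the PCDHB2 result was not tested.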

How the data were processed

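Total RNA of 24 C4-2B samples was measured on Illumina bead arrays. The deposited table gives raw bead intensity in 48118 rows, 887 of them controls that were dropped here, and a detection p-value per intensity, per the file headers. The authors' processed values were deposited on a log2 scale, and limma is named per the submitters' processing notes without a version; on each array they correlated at 0.9982 or more with the normalised values used here. Background correction and quantile normalisation used neqc (limma 3.58.1, R 4.3.3; offset 16), which took the detection p-values to estimate background. Symbols are those of the platform's probe table.

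The 23038 probes that reached a detection p under 0.05 on 4 or more arrays entered 1 limma fit of 6 group means (18 residual degrees of freedom) with 12 contrasts and Benjamini-Hochberg adjustment over all 23038. A call is an adjusted p under 0.05, 2-sided. Differences are on the log2 scale, first group minus second. Replicate numbers, which the labels give, pair the samples: all 60 same-number pairs of deviations correlated at 0.127 or more (median 0.288; different numbers, median -0.122), and 24 of 24 arrays matched their own number best. The fit with that block (15 residual degrees of freedom) is printed where it changes a call of a protocadherin probe, and for other listed genes in sip300 against siNS cells and, markers aside, for DHT. A "variation" share is the sum of squares between replicate numbers over the total. Tested on simulated data for sip300 against siNS cells with DHT over 23038 probes, the fit recovered 54 of 100 changes of 1 and 97 of 100 changes of 2 (log2), with 9 false calls. The simulated noise was independent between arrays and held no effect of replicate number, unlike the real arrays, so these rates may differ for them.

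The members, lists and tests were chosen with earlier results of these arrays known. Probes named by rule are those called, the 3 brightest tested in each subcluster, those detected on all 4 arrays of a group, and context genes called between sip300 and siNS cells; others, such as PCDHB5, PCDHB13, CDH6 and genes called only with the block, were named after their values were seen. Of 5 leukocyte markers with a probe 1 was detected on all 24 arrays, with sums of 458 to 684 in sip300 cells and 493 to 690 in siNS cells with DHT. Alternatives were the replicate block, the authors' values, other detection filters, 1 probe per gene, each slide alone and leaving out each replicate. The number of arrays limits the precision.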

Additional observations from a re-analysis of the deposited data

Results flagged for a closer look

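Of 72 groups of 4 arrays checked, for the 12 named protocadherin probes, 3 held an array whose gap to its nearest neighbour took up more of the group's range than the 95% limit of Dixon's test allows. Chance gives this in about 1 in 20 groups, but the groups share replicate numbers and are not independent. PCDHB2 was 7.17 on the array of replicate 4 of sip300 cells without DHT, against 8.15 to 8.35 on the other 3, and was still above every siNS array. Replicate 4 was also the lowest PCDHB2 array in every other group. PCDHB9 was 7.33 on the array of replicate 1 of sip300 cells with DHT, against 8.24 to 8.38 on the others, and 6.70 on that of replicate 1 of siNS cells without DHT, against 7.59 to 7.75. Replicate 1 was the lowest PCDHB9 array in every group except sip300 cells without DHT.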

How the results depend on the processing

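Leaving out each replicate in turn, alone or from all groups, left every count of called protocadherin probes as it was: 1 to 1 in the 4 comparisons of sip300 with siNS or siCBP cells, 0 to 0 in the others; uncalled differences such as that of PCDH7 moved by over 1.5 times. PCDHB2 stayed called in each, with adjusted p up to 0.00688 with DHT and 0.0228 without against siNS cells. With the replicate block the calls were 2 with DHT and 3 without for sip300 against siNS, 2 and 2 against siCBP, and 1 for DHT in each arm; it changed no other call of a protocadherin probe. The authors' values gave 2 and 4 against siNS, 3 and 3 against siCBP, and 1 for DHT in each arm. The 4 include the fainter PCDH7 probe, which entered the tests only through sip300 cells. Without a detection filter the counts were 2 and 2 against siNS and 3 and 2 against siCBP; requiring detection on all 24 arrays, which removes PCDHB2, they were 0 in all 4. Slide 1 alone gave 2 for sip300 against siCBP without DHT, and slide 2 alone gave 0 there (PCDHB2, adjusted p 0.195) and 0 against siNS at both times. On single slides PCDH20 turned to -1.22 for DHT in sip300 cells (slide 1) and PCDH7 to -1.30 for sip300 against siCBP without DHT (slide 2), where the compared groups hold different replicate numbers. At a detection p under 0.01, 7 probes were left. Over tested probes alone, a filter chosen after seeing the data, the median differences between sip300 and siNS cells became 0.25 for beta with DHT, and without DHT -0.062 for alpha, 0.47 for beta and 0.105 for gamma; over the 1 probe a cluster detected on all 24 arrays they were 0.361 and 0.651 for beta, -0.151 and 0.138 for gamma, 1.343 and 1.374 for unclustered, with and without DHT. Signals near background understate folds, as for PCDHB2 in control cells.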

Other observations

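A pseudogene of the beta cluster, left out of the family counts, was detected more widely than nearly all coding members. The PCDHB19P probe was detected on 23 of 24 arrays and averaged 6.58 ± 0.464 in sip300 cells, 6.62 ± 0.561 in siCBP cells and 6.61 ± 0.551 in siNS cells with DHT, and 6.95 ± 0.178, 6.69 ± 0.433 and 6.69 ± 0.262 without DHT (SD, n = 4 each). The sip300, siCBP and siNS arrays overlapped. The other 4 pseudogene probes were detected on 0 to 5 arrays. The clustered genes and their pseudogenes have similar sequences, and cross-hybridisation between them was not tested.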
